A study of Drosophila melanogaster with 3 samples.

Results

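Receptor tyrosine kinases pass signals from outside a cell to its genes, and in Drosophila the EGF receptor, the FGF receptor heartless, torso and sevenless share one cytoplasmic route. A bound receptor recruits adaptors, and through them an exchange factor that loads the small GTPase Ras. Ras starts a kinase relay of Raf, Dsor1 (MEK) and rolled (ERK). The relay ends on ETS-domain transcription factors, the activator pointed and the repressor anterior open. In the embryo the EGF receptor acts in the ventral ectoderm, among other tissues, and heartless in the mesoderm, and several inhibitors of the pathway are themselves switched on by it. The genes described here are 36 such genes, taken as a named list and all found in the annotation, of 13945 protein-coding genes in all. Binding was that of tap, a basic helix-loop-helix (bHLH) factor of the neurogenin family, mapped by chromatin immunoprecipitation and sequencing.

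The samples form 1 group of 3 biological replicates, with no second genotype or treatment. Each was a pool of male and female whole embryos aged 6 to 16 h, from 1 transgenic fly line that carries tap with eGFP at its C-terminus, and chromatin was recovered with an antibody to GFP. Whole embryos mix all cell types, so binding in few cells and weak binding in many cannot be told apart. The deposited peak lists, in dm6, hold 30000 peaks for each replicate, 30000 for the pooled replicates, and 4336 thresholded peaks that passed the submitters' test of reproducibility and are the strongest of the pooled list. The lists hold no read counts, so the depth behind a peak is unknown. Signal is the submitters' value per peak, on a scale that differs between lists, so replicates are compared by rank (1 is the strongest), and "the strongest peaks" of a replicate are its first 4336. A gene was credited with a peak when its transcription start site (TSS) was the closest protein-coding one to the summit. With 1 group and no control libraries in use here, no comparison below carries a p-value.

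The pathway held 64 thresholded peaks, spread over 19 of its 36 genes (52.8%), where 18.9% of all protein-coding genes had at least 1. The strongest peaks of the replicates gave 18, 18 and 23 genes in replicates 1, 2 and 3, a share of 54.6% ± 8.02 (SD, n = 3), beside 19.2%, 19.5% and 19.0% of all genes. In 14 genes each of the 3 replicates had at least 1 of its strongest peaks, namely spi, ru, S, aos, sty, pnt, aop, edl, Raf, dos, RasGAP1, htl, stumps and ths. This is 14 of 36 genes, beside 12.2% of all protein-coding genes. All 14 are among the 19. The other 5, rho, stet, Egfr, tsl and pyr, had their best peaks at ranks 2268 to 4324 and fell outside the strongest peaks of at least 1 replicate. Of the 64 peaks, 40 remained when both of replicates 2 and 3 had to hold them among their strongest peaks, and 41 when replicates 1 and 3 had to.

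By role, peaks were found in 5 of 8 genes for EGF receptor ligands and their processing, in 3 of 4 genes for the receptor and its inhibitors, and in 3 of 3 genes for ETS factors and their modulator edl. They were found in 4 of 4 genes of the heartless FGF receptor system, in 3 of 12 genes of the cytoplasmic cascade and in 1 of 5 genes of the torso and sevenless systems. The share over all genes was 18.9%, so in the thresholded list the cascade and the torso and sevenless systems lay near it. By the strongest peaks, the cascade had 4, 4 and 8 of 12 genes in replicates 1, 2 and 3. The torso and sevenless systems had 0, 2 and 1 of 5, beside 19.2%, 19.5% and 19.0% of all genes. The role groups also differ in the length of genome that lies nearest to their TSSs, whose part in the counts was not tested. The median was 26.9 kb for ETS factors and their modulator, 33.8 kb for the receptor and inhibitors, 30.1 kb for the FGF system and 14.9 kb for ligands and processing. It was 6.78 kb for the cascade and 5.40 kb for torso and sevenless, and 4.25 kb over all protein-coding genes.

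**Figure D1:**
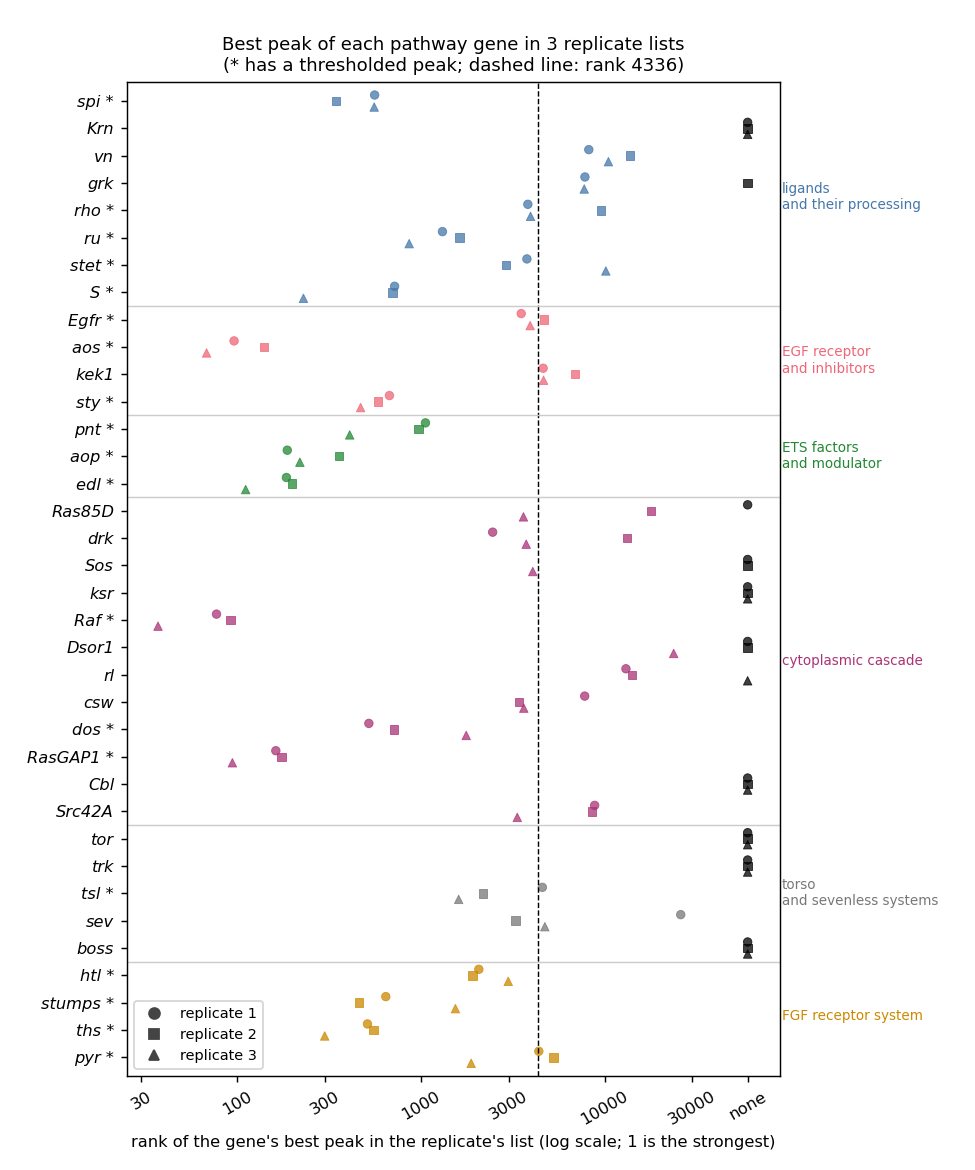
For each of the 36 genes, the rank of its best peak in the list of each replicate is plotted on a log axis, with genes grouped and coloured by role. Black symbols at the right edge mark a replicate whose list holds no peak for the gene, asterisks mark genes with a thresholded peak, and the dashed line is rank 4336. Raf, aos, RasGAP1, edl and aop lie farthest to the left, and ksr, Cbl, tor, trk and boss have no peak in any replicate. Krn also shows none, but it shares its only TSS with Ndfip, to which peaks there were counted.

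The sequences are shown for the strongest peaks and do not stand for all summits of the pathway. The 100 bp about the summit are given below for 8 of the genes with the strongest peaks, read from the RefSeq copy of the dm6 assembly on the plus strand, at chrX:2297664-2297763 for Raf, chr3L:16480504-16480603 for aos, chr3L:9855923-9856022 for RasGAP1, chr2L:2180218-2180317 for aop, chr2L:1072312-1072411 for S, chr2L:19575734-19575833 for spi, chr3L:3432775-3432874 for sty and chr3R:14591213-14591312 for stumps. Capitals mark an E-box, CANNTG, the kind of sequence bHLH factors bind.
Raf: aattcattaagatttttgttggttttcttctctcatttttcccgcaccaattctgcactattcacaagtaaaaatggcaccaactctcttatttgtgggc
aos: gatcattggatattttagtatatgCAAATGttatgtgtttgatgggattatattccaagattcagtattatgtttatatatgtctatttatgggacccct
RasGAP1: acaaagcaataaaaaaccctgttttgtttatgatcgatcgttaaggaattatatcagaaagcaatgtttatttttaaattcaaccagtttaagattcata
aop: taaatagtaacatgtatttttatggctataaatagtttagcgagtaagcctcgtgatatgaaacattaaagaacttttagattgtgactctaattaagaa
S: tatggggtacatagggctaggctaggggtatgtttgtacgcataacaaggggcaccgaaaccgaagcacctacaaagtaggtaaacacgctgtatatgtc
spi: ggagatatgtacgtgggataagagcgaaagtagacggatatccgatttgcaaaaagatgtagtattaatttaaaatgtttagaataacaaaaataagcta
sty: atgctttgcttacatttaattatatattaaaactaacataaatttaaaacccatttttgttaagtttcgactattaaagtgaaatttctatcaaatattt
stumps: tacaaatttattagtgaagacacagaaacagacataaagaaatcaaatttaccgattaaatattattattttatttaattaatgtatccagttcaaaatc

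Of these 8 windows, 1 holds an E-box, a single CAAATG at aos. In wider windows of 201 bp over all 64 summits, 37 held one (57.8%), beside 59.8% of all thresholded summits. Equal windows centred 500 bp to each side of the 64 summits held one in 62.5%. The windows of edl and ths, whose peaks were also among the strongest, are not shown. Most are rich in A and T, with 19% GC at sty, 21% at stumps, 26% at RasGAP1, 27% at aop and 29% at aos. The window of S is the highest at 48% GC, and those of spi and Raf have 31% and 36%.

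The ligands of the EGF receptor and the proteins that release them came out unevenly. The gene spi encodes spitz, the main embryonic ligand, made as a membrane-bound precursor. It had 2 promoter peaks. The stronger, on 2L at 19575652 to 19575963, was 197 bp upstream of a TSS, with a signal of 621.9 and ranks of 559, 344 and 556 in replicates 1, 2 and 3. The weaker (signal 225) ranked 2325, 3151 and 1765, so both peaks were among the strongest of every replicate. The other ligand genes had no thresholded peak. For vn, the secreted neuregulin-like ligand vein, the best of 4 peaks in the pooled list had rank 8349, and for grk, the oocyte ligand gurken, the pooled list had none. Krn, a second spitz-like ligand, shares its only TSS with Ndfip, and a promoter peak 148 bp from it (signal 312.1, ranks 866, 1908 and 8099) was counted for Ndfip.

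S encodes Star, which carries the spitz precursor out of the endoplasmic reticulum. It had 5 thresholded peaks, all in its introns, between 1842 and 14709 bp downstream of the TSS, and 3 of them were among the strongest of every replicate. Without replicate 1, or without replicate 2, 3 remained. The 3 strongest had signals of 638, 539.2 and 459.3 and lay within 5449 bp of the TSS. The middle of these was the evenest, at ranks 734, 701 and 692, while the first ranked 718 and 773 in replicates 1 and 2 and 229 in replicate 3.

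The rhomboid proteases that cut the precursor lie close together on 3L. The gene ru (roughoid) had 3 peaks in introns of Ptp61F, 2 of them also within ru, with signals of 341, 337 and 194.6, and each was among the strongest peaks of all replicates. The first 2 ranked 1308, 2114 and 1127, and 1899, 1619 and 862. When the TSSs of all annotated genes competed, ru kept 1 peak, and the others were nearer to tRNA:Glu-CTC-3-1. Rhomboid itself (rho) had 1 promoter peak, 17 bp from its TSS, with a signal of 153.7 that places it at rank 4324 of 4336. It ranked 3815 and 3946 in replicates 1 and 3 and 11700 in replicate 2. The peak of stet (signal 191), a rhomboid of the germ line, lay 782 bp from the stet TSS at the start of the small noncoding RNA sncRNA:CR43701, and ranked 3770, 2900 and 11129.

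The receptor gene Egfr had 1 weak peak, and its inhibitors aos and sty had strong ones. The Egfr peak lay in an intron, 5058 bp downstream of a TSS (2R:21527290-21527665, signal 186.9), with ranks of 3511, 4664 and 3928. Its summit was closer, 4717 bp, to the TSS of lncRNA:CR44725, so Egfr had 0 peaks when the TSSs of all annotated genes competed. A promoter peak of Egfr, 124 bp from the TSS, and an intronic peak were just outside the thresholded set, at pooled ranks of 5134 and 5113.

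The gene aos encodes argos, a secreted protein that captures spitz. Its leading peak was intronic, 3096 bp downstream of the TSS (peak 3L:16480408-16480712), with a signal of 1296 and ranks of 96, 140 and 68 (mean 101 ± 36.3, SD, n = 3). A promoter peak 299 bp upstream (signal 529.4) ranked 513, 593 and 1507. The third, intronic (190), ranked 6759, 3842 and 1653 and was the least even of the 3. All 3 summits also lay within CG33158, a gene that overlaps aos.

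Sprouty (sty), an intracellular inhibitor first known from the trachea, had 5 peaks, all upstream of the nearest sty TSS. The strongest, 7890 bp upstream (3L:3432724-3432973, signal 576), ranked 673, 585 and 469. It and 3 weaker peaks, 10204 to 13750 bp upstream, lay in an intron of the neighbouring gene eIF5B, and 1 peak lay within sty, 1031 bp upstream of an internal TSS. The last of these ranked 3563, 2297 and 861. Without replicate 1, or without replicate 2, 3 of the 5 remained. Whether the eIF5B intron serves sty was not tested. Kekkon 1 (kek1), a membrane protein that binds the receptor, had none. Its best peak in the pooled list, 96 bp from the TSS, had rank 6343.

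The ETS factor genes and edl each had several peaks. The activator gene pnt had 10, a number reached by 11 of the 13945 genes. They spanned 53395 bp of its locus, 1 of them just upstream of the gene and 9 within it. The strongest (3R:23326395-23326601, signal 489.1) ranked 1057, 970 and 409. A run of 5 peaks lay 10429 to 14661 bp downstream of the nearest pnt TSS, about the start of the noncoding RNA gene lncRNA:CR46090. Replicates differed within the run. The peaks with signals of 327.7 and 257.8 ranked 1195 and 1930 in replicate 1 and 1069 and 1729 in replicate 2, but 8791 and 8553 in replicate 3. Of the 10, 3 were among the strongest peaks of all replicates. Without replicate 1, 2 or 3 the gene kept 3, 4 or 6 of them, and 4 were nearest to pnt when the TSSs of all annotated genes competed.

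The repressor gene aop, also known as yan, had 7 peaks. The strongest lay 1514 bp upstream of a TSS, outside the gene, at 2L:2180123-2180398, with a signal of 899 and ranks of 187, 357 and 219 (mean 254 ± 90.3, SD, n = 3). The next, 878 bp upstream (signal 382.9), ranked 1166, 962 and 2180. The third, intronic and 2139 bp upstream of the second TSS (376.2), ranked 1696, 1192 and 1059. The others had signals of 212.3 or less, and 4 of the 7 were among the strongest of all replicates. The count was also 4 without replicate 1 and without replicate 2.

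The small gene edl, whose product (also called Mae) binds pointed and anterior open and has no ETS domain of its own, had 4. Without replicate 1, or without replicate 2, 2 remained. Its intronic peak, 1820 bp downstream of the TSS (2R:18671602-18671888), had a signal of 1066 and ranks of 185, 199 and 111 (mean 165 ± 47.3, SD, n = 3). Its 2 promoter peaks, 124 and 326 bp upstream, are matched by the same peak in replicates 1 and 2 (ranks 1658 and 1165), and the second has no match in replicate 3. The fourth, 3004 bp upstream (237.2), ranked 2062, 3626 and 2353.

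In the cytoplasmic cascade, 14 peaks lay at 3 of the 12 genes. Raf had 8, a number reached by 27 of all genes, and its leading peak was the strongest of the pathway. It lay in an intron 2248 bp downstream of the upstream TSS, at X:2297562-2297882, with a signal of 1512 and ranks of 77, 92 and 37 (mean 68.7 ± 28.4, SD, n = 3). The next, 5232 bp downstream (902.4), ranked 279, 399 and 122. Another 4 intronic peaks had signals of 518 to 441.8 and ranks of 1157 or better in every replicate, and these 6 were all among the strongest of every replicate. The other 2, the last intronic peak (217.6) and a promoter peak 241 bp upstream (171.1), were not. All 8 summits stood within 11353 bp, with a median gap of 1523 bp. They lie at the start of the long Raf transcript, 33720 bp or more from the second annotated Raf TSS.

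RasGAP1, which returns Ras to its inactive state, had 4 peaks. The strongest lay 688 bp upstream of its TSS (peak 3L:9855828-9856137), with a signal of 1137 and ranks of 162, 174 and 94 (mean 143 ± 43.1, SD, n = 3). A second upstream peak (655) ranked 439, 474 and 685. The others were an intronic peak (273.3) and a promoter peak 26 bp upstream (190.3), and all 4 were among the strongest of every replicate. The adaptor gene dos had 2, a peak in its 5' untranslated region (497, ranks 520, 713 and 1762) and a weaker promoter peak (169.4) with no match in replicate 3.

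No thresholded peak was assigned to the other 9 cascade genes. These are the adaptor drk, the exchange factor Sos, Ras85D itself, the scaffold ksr, the kinases Dsor1 and rl, the phosphatase csw, the ubiquitin ligase Cbl and the kinase Src42A. Of these, csw, Src42A and rl had peaks in the pooled list, with best ranks of 6891, 8239 and 19730, all at promoters. The pooled list held none for drk, Sos, Ras85D, ksr, Dsor1 and Cbl. It held at least 1 for each of the other cascade genes, beside 48.2% of all genes. For the genes without, the length of genome nearest to their TSSs ran from 700 bp (drk) to 8242 bp (Cbl). Its part was not tested. Replicate 3 had peaks among its strongest for 5 of the 9, Ras85D (rank 3611), drk (3738), Sos (4059), csw (3626) and Src42A (3342), all within 237 bp of a TSS. Over the whole cascade, 8 of 12 genes had such a peak in replicate 3, beside 19.0% of all genes. Replicate 1 had such a peak for drk (2454) and replicate 2 for csw (3420).

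Assignment to the nearest TSS hides some peaks. With a gene counted when its body, extended by 1000 bp, held a summit, 23 of the 36 genes (63.9%) had a peak, beside 22.7% of all genes. The 4 added genes were Krn, vn, Ras85D and drk. The summit at Ras85D, counted for Rlb1, was 146 bp from the Ras85D TSS and ranked 2742, 10226 and 3611. Those in introns within drk (signal 431.7) and vn (443.8) were nearer to mars and mad2.

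Among the torso and sevenless genes, which act at the ends of the early embryo and in the eye, only tsl had a thresholded peak. The gene tsl, for the secreted torso-like protein, had an intronic peak 943 bp from the TSS (signal 239.6) at ranks 4576, 2172 and 1603. The receptor gene sev had 1 pooled peak, at rank 19886, and its best peaks in the replicates ranked 25929, 3274 and 4722. No list held a peak for the receptor gene tor, its ligand trk or the sevenless ligand boss.

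The heartless FGF receptor, its adaptor and its ligands, which guide mesoderm spreading, had a peak at each of the 4 genes. The receptor gene htl had 1 promoter peak, 351 bp upstream of a TSS (3R:18049529-18049904, signal 268.8, ranks 2064, 1903 and 2984). The adaptor gene stumps had 2 promoter peaks. The stronger, 357 bp upstream of an internal TSS (3R:14591155-14591434, signal 546.3), ranked 643, 459 and 1539, and the weaker (170.5) stood on the first TSS. The ligand genes ths and pyr lie close together on 2R. The strongest peak of ths was intronic, 1464 bp downstream of a TSS (signal 663.6, ranks 511, 552 and 299), and another lay 18095 bp upstream, between ths and pyr (273.6). The third peak of ths, 2460 bp downstream (176.3), ranked 4041, 6246 and 2250. The 1 peak of pyr, in its intron 10780 bp from the TSS, was weak (157.5, ranks 4378, 5257 and 7121).

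**Figure D2:**
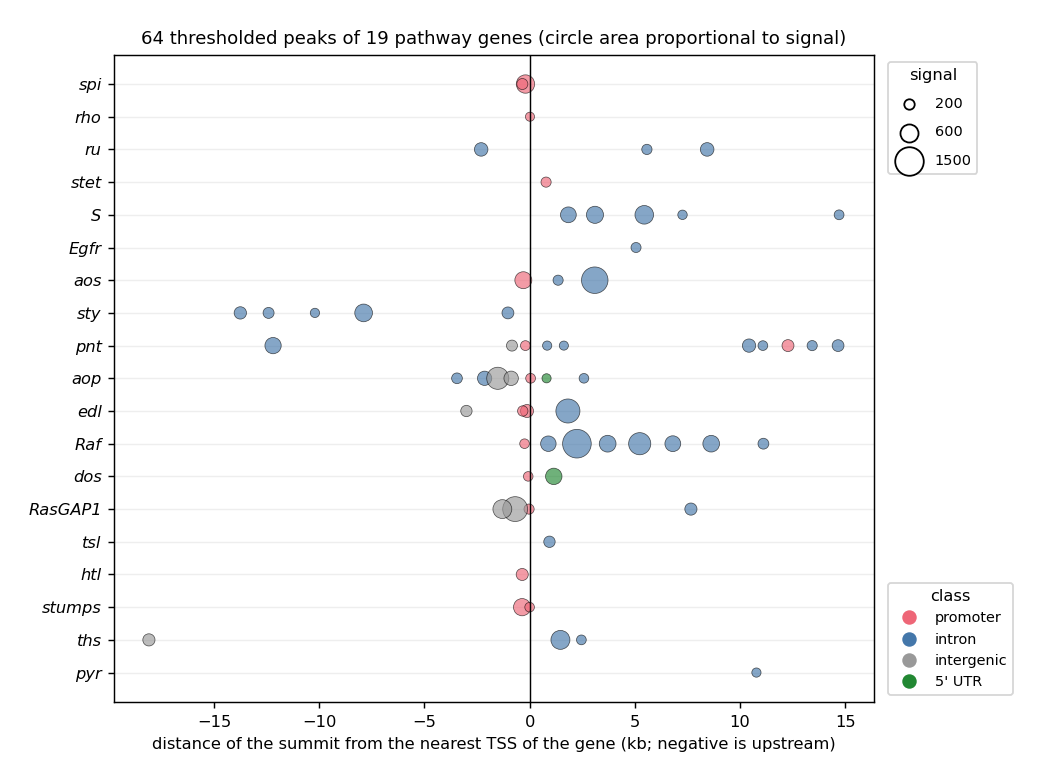
Each circle is 1 of the 64 thresholded peaks, placed by the signed distance of its summit from the nearest TSS of its gene, in kb, with negative values upstream. Circle area is proportional to signal and colour gives the class. The 8 peaks of Raf start 241 bp upstream and run to 11112 bp downstream, those of sty all lie upstream, and the largest circles, at Raf, aos, RasGAP1 and edl, lie outside the promoter class.

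A smaller share of these genes' peaks than of all thresholded peaks was at promoters. Promoter-proximal meant no more than 500 bp between the summit and some annotated TSS. This held for 16 of the 64 pathway peaks, or 25%, beside 41.2% of all 4336. In the strongest peaks of the replicates the share was 26.6% ± 2.26 for pathway genes and 43.3% ± 1.24 for all (SD, n = 3), with 26.2%, 24.6% and 29.0% against 44.5%, 43.5% and 42.0% in replicates 1, 2 and 3. The pathway value lay below that of all peaks in each replicate. The difference was not tested. The genes pnt, Raf and aop hold 10, 8 and 7 of the 64 peaks and so weigh most in the pathway's share. Pathway genes with a peak also have more genome nearest to their TSSs, a median of 21.7 kb beside 9.31 kb for all genes with one. The part of this in the promoter share was not tested. Introns held 39 of the 64 (60.9%, beside 39.4% of all), intergenic sequence 7, 5' untranslated regions 2, and coding exons and 3' untranslated regions 0. The median distance to the TSS was 2193 bp for pathway genes and 1144 bp for all peaks. The pathway's promoter peaks were also weaker than its others, with a median signal of 194.9 against 277.7. Over all thresholded peaks the order was the other way, 258.2 at promoters and 241.5 elsewhere. Of 10 pathway peaks ranked 500 or better, which belong to Raf, aos, RasGAP1, edl, aop, ths, S and spi, 1 was at a promoter, that of spi. These 10 are 15.6% of the pathway's peaks, beside 11.5% of all thresholded peaks. The promoter share of all peaks ranked 500 or better is not given here, so the 1 of 10 has no comparison.

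The genes differ widely in the genome around them, and so do their peak counts. The length nearest to a gene's TSSs had a median of 15.0 kb over the 36 genes and 4.25 kb over all protein-coding genes. It was 21.7 kb for the 19 pathway genes with a peak and 5.32 kb for the 17 without. Of the 36, 22 lay in the longest quartile, above 9.86 kb, where 16 of the 22 had a peak and 36.5% of all genes did. In the other quartiles 3 of 14 had a peak, namely dos, edl and spi, and all-gene shares were 8.14%, 12.7% and 18.5%. Long stretches without a thresholded peak were those of rl (156700 bp, in which the best pooled rank was 19730) and kek1 (75345 bp). Per Mb of such stretch there were 80.2 peaks for the pathway and 32.4 over all genes. Among genes with a peak the gap was narrower, 145 per Mb in the pathway and 104.5 over all such genes. These genes had a mean of 3.37 peaks in the pathway and 1.64 over all, and median lengths of 21.7 kb in the pathway and 9.31 kb over all.

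**Figure D3:**
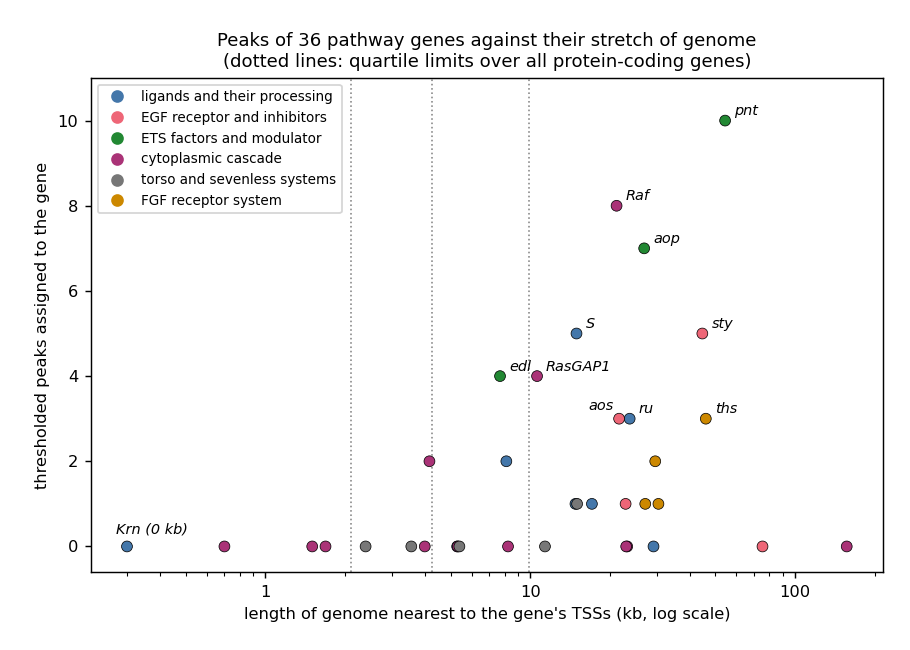
The number of thresholded peaks of each of the 36 genes is plotted against the length of genome nearest to its TSSs, in kb on a log axis, coloured by role. Krn, whose length is 0 because its TSS is shared, is drawn at the left edge, and dotted lines are the quartile limits over all protein-coding genes at 2.10, 4.25 and 9.86 kb. The 10 peaks of pnt, 8 of Raf and 7 of aop stand above the rest, and rl, far right, has 0.

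Each pathway peak was also looked for in the replicates, by a summit within 200 bp. Of the 64, 37 (57.8%) were among the strongest peaks of all 3 replicates, beside 49.4% of all thresholded peaks. A further 17 were so in 2 replicates, 8 in 1 and 2 in none, the weakest of sty and that of pyr. By replicate the shares were 82.8%, 82.8% and 73.4% for pathway peaks, beside 82.9%, 81.3% and 67.2% for all. Spearman's rho of the ranks was 0.88 between replicates 1 and 2 (64 peaks), 0.72 between 1 and 3 and 0.74 between 2 and 3 (62 peaks each). Over all thresholded peaks it was 0.78, 0.54 and 0.52. Peaks share libraries and loci, so these coefficients are descriptions.

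Summits in the pathway were low in GC, as summits were over the whole set. The 100 bp about the summit averaged 32.9% GC and windows 500 bp to each side 43.5%, a difference of -10.6 percentage points, beside -10.2 over all thresholded peaks. In the strongest peaks of replicates 1, 2 and 3 it was -8.33, -10.5 and -5.66 for pathway genes, beside -10.85, -11.2 and -4.29 for all, and replicate 3 had the smallest dip in both. The GC of the summit was below that of its flanks in 52 of the 64, beside 3453 of all 4336 thresholded peaks. Promoter summits of the pathway dipped by less, -4.38 points for 16 peaks, beside -10.9 for all promoter peaks, and the other 48 by -12.7, beside -9.68. This rested on few peaks. The 5 summits above 50% GC, at rho, stet, pnt, RasGAP1 and stumps, were all promoter-proximal and all weak, with signals of 153.7 to 191. Over all thresholded peaks 235 summits (5.42%) were above 50% GC, 144 of them at promoters, with a median signal of 190.9.

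**Figure D4:**
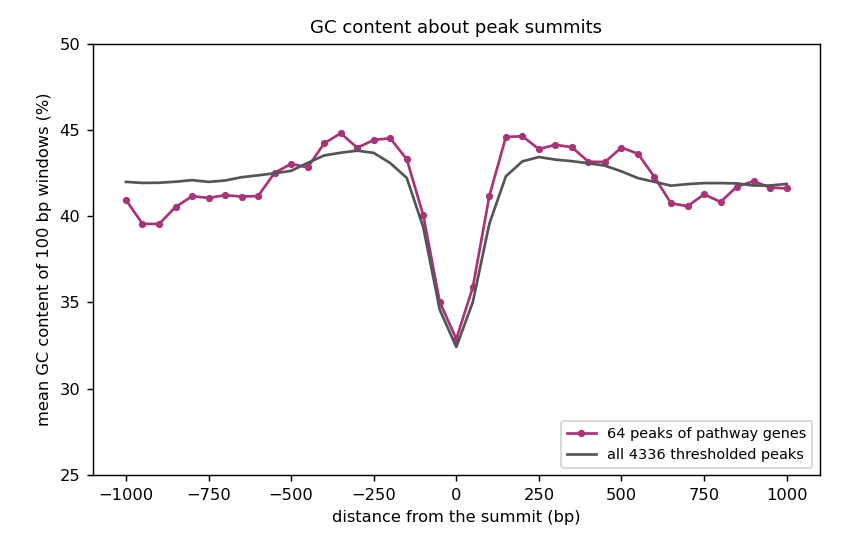
The mean GC content of 100 bp windows, in percent, is plotted against distance from the summit in bp, for the 64 pathway peaks and for all 4336 thresholded peaks. Both lines fall to a low at the summit, 32.9% and 32.4%, and return to about the level of the flanks within 200 bp.

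E-boxes were no more common at these summits than in their flanks. Letters were searched on both strands within 100 bp of the summit and in equal windows centred 500 bp to each side. Any CANNTG was present at 37 of 64 summits (57.8%) and in 62.5% of flanks, beside 59.8% and 65.3% over all thresholded peaks. CATATG, which is a CANNTG, was present at 5 (7.81%, flanks 9.38%), in peaks of Raf, RasGAP1, aop and ru. Over all thresholded peaks CATATG was the other way, at 8.35% of summits and 7.18% of flanks. CAGCTG, also a CANNTG, was present at 3 (4.69%, flanks 5.47%), in peaks of aop, edl and sty. Over all thresholded peaks CAGCTG was at 7.24% of summits and 9.55% of flanks. GAGAG, the core bound by GAGA factor, was at 29.7% of summits and 29.7% of flanks, beside 23.2% of all summits. The run AAAAAA was at 32 of 64 summits and in 33.6% of flanks, beside 43.9% of all summits. In the strongest pathway peaks of replicates 1, 2 and 3, AAAAAA was at 44.3%, 49.1% and 32.3% of summits and CANNTG at 47.5%, 54.4% and 66.1%. CATATG was at 9.48% ± 1.27 of them, CAGCTG at 3.29% ± 1.54 and GAGAG at 32.6% ± 7.11 (SD, n = 3).

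Other genes of receptor tyrosine kinase signalling, a second list of 36, had peaks in 13 (36.1%), beside 18.9% of all genes, and in 37.0% ± 1.60 by the strongest peaks of the replicates (SD, n = 3). The count was 8 when both of replicates 2 and 3, or both of 1 and 3, had to hold the peak among their strongest. It was 15 (41.7%) by gene bodies extended by 1000 bp, beside 22.7% of all genes. The median stretch of genome of this second list, 14.3 kb, was close to that of the pathway genes above.

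Of 11 other receptors and ligands, 4 had a peak. Pvf3, a ligand of the PDGF- and VEGF-related receptor, had 6, the best intronic with a signal of 543.5 and ranks of 851, 722 and 505. The FGF ligand gene bnl had 3 (best 242.3), otk 2 (246.1) and the Alk ligand gene jeb 1 (308). The second FGF receptor gene, btl, had none in the thresholded or the pooled list, nor had Alk or Ror. Pvr, Pvf1, Pvf2 and Ret had no thresholded peak but 9, 4, 10 and 3 in the pooled list.

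Of 14 other regulators, 4 had a peak. The ERK phosphatase gene Mkp3 had 3, the best 474 bp upstream of its TSS with a signal of 587.4, though at rank 2961 in replicate 3 beside 303 and 576. Echinoid (ed), an adhesion protein that dampens EGF receptor signalling, had 3 (best 470.2, ranks 853, 1127 and 551). The genes kek5 and lilli had 2 and 1, and the peak of lilli had no match in replicate 3. The other 10, cnk, Spred, Shc, Nf1, PTP-ER, sl, kek2, rho-4, rho-5 and rho-6, were credited with no thresholded peak, and at most 2 each in the pooled list. Spred, Shc and Nf1 each had 1 thresholded summit in the gene body extended by 1000 bp, which was counted for another gene.

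Of 11 other nuclear effectors, 5 had a peak. The repressor gene cic (capicua), which ERK inactivates, had 5 peaks, none of them promoter-proximal, the best intronic with a signal of 640 and ranks of 508, 875 and 256. The gene phyl (phyllopod), for an adaptor that targets the repressor tramtrack for breakdown, had a promoter peak (303, ranks 1096, 1940 and 1589). The genes ttk (tramtrack), Ets65A and Ets97D had 1 weak peak each, with signals of 183.8, 178 and 180.6. No thresholded peak was nearest to sina, lz, tll, hkb, Ets21C or Ets98B, which had 0 to 4 in the pooled list.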

How the data were processed

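Peaks were mapped in 3 biological replicates of tap-eGFP embryos, with fragments of 200 to 800 bp per the labels. Per the submitters' README notes among the deposited files, the authors made a list from each replicate with a control alignment, a list from the pooled replicates, and a set thresholded by the irreproducible discovery rate. The sources used here do not give the aligner, the peak caller, their versions or the threshold. The deposited lists give a signal and, by their format, the −log10 of a q-value per peak, which served as an alternative ranking. No peak ended beyond its arm (0 cases). TSSs came from Ensembl release 115, and sequence from the RefSeq copy of the assembly. Python 3.11.15 with pandas 2.3.3 and scipy 1.17.1 was used, tested on simulated peaks. A replicate peak matched within 200 bp of a summit. Every list gene was accounted for, with weaker peaks in ranges. Sequences are those of the 8 genes with the strongest peaks outside arm 2R. The members and lists were chosen with earlier results of these data known. No set test was run.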

Additional observations from a re-analysis of the deposited data

How the results depend on the processing

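The count of 19 pathway genes with a peak ran from 14 to 25 over the settings run, Egfr, rho, stet, tsl and pyr being those lost. The highest, 25 (69.4%), came from the pooled list, where 48.2% of all genes and 72.2% of the other pathway genes had a peak. No share of all genes is given for the settings that lowered the count, so those counts cannot be set against all genes. Of the peak counts for single genes under the alternatives, 101 were classed as close to the reported value. The class was loose, and took in changes such as 4 to 6 (RasGAP1, pooled list) and 3 to 2 (ths, without replicate 1). The other 70 moved, among them the 10 peaks of pnt. The 64 pathway peaks became 34 with the stronger 50% of thresholded peaks and 273 with the whole pooled list. They were 41 with summits within 5000 bp of the TSS. Without 1 replicate they were 40 to 47, where both others had to hold a peak. The 13 other genes became 7 with the stronger 50%, 26 with the pooled list and 8 to 11 without 1 replicate. The promoter share of 25% was 15.6% with a window of 200 bp, 37.5% with 1000 bp, 21.9% with protein-coding TSSs only, 17.65% in the stronger 50% and 17.5% to 23.4% without 1 replicate. The share of all thresholded peaks under these settings is not given, so whether the pathway's share stayed lower there is unknown. With 10000 peaks per replicate, 60 of 64 peaks were shared. The GC difference was -7.58 points with windows of 200 bp. CATATG was at 6.25% of summits within 50 bp, 11.8% in the stronger 50%, and 8.51% to 10% without 1 replicate, and CAGCTG at 3.125%, 8.82%, and 4.88% to 6.38%. Smaller windows and stricter lists hold fewer bases and peaks by construction. A setting chosen after seeing the data, with a shared TSS counted for both genes, gave 20 genes, adding Krn. No paired analysis was possible because the samples form 1 group. Depth is unknown, and a site below the limit of a list of 30000 peaks cannot be told from no binding.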
